A study of Dugesia japonica with 4 samples.

Results

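The genes described here are 104 gene models of the planarian Dugesia japonica that were higher inside the tissue sections than at their rim and higher on the right side of the sections than on the left. They were chosen from 38792 features, of which 2684 could qualify. To qualify, a feature needed an identifier of the DJKW series, at least 1 unique molecular identifier (UMI, a single captured RNA molecule) in 20% of the spots and a mean of 50 CPM (counts per 1e6 UMIs). Its CPM + 1 in well A also had to be above 0.25 times that of the lowest other well. Of these, 114 (4.25%) were above 0 in 4 wells and at a mean log2 ratio of at least 1 for interior over edge spots, and 131 (4.88%) had a mean log2 ratio of at least 0.7 for the right over the left side. The 104 genes met both conditions. Both ratios come from the same counts in the same 4 wells, so they are given below as descriptions and without a test.

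The tissue was head blastema of wild-type animals at 5 dpa, cryosectioned at 8 µm from fresh-frozen material and stained before capture on Visium arrays, whose barcoded spots lie on a hexagonal grid and capture polyadenylated RNA. The series holds 4 libraries, wells A to D, all of 1 group, so no treatment or genotype is compared and every comparison is between places in the sections or between wells. The labels give no number of animals and no order of the wells along the body. Interior spots (334) had tissue at each of their 6 neighbours and edge spots (882) lacked it at 1 or more, and a section is a group of at least 5 connected spots, 12 in each well. Left and right are lower and higher array columns than the section's mean, and the body axis to which they correspond is not given in the sources used here.

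A blastema is the mass of new tissue that a planarian builds over a wound. It is fed by neoblasts, the dividing stem cells of these worms, whose descendants differentiate as they move into it. A planarian body has an epidermis at its surface and, inside, muscle, nerve cords, gland cells, gut branches and parenchyma, so that place in a section separates tissues. The feature lists pair the identifiers with no gene names. The function of the 104 genes is therefore not stated, the label of the tissue was not checked against marker genes, and no sequence of them is shown.

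Depth was 1499569 UMIs over 180 spots in well A, 2190105 over 201 in well B, 4395756 over 402 in well C and 3752977 over 433 in well D. Well A stands apart in several results below, and it holds 23 interior spots against 32, 139 and 140 in wells B, C and D. The median section size in wells A to D was 14, 17.5, 34.5 and 35 spots. Pairs of wells shared 19 to 112 spot barcodes, which on these arrays name positions, and no pair agreed within sampling noise (the lowest ratio of chi-square to its degrees of freedom was 11.5). Nothing in the labels says that the wells hold different animals, so p-values concern the spread between these libraries.

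The 104 genes together supplied 2.67%, 5.83%, 6.93% and 8.64% of the UMIs of wells A, B, C and D. In the right interior they supplied 7.53%, 11.95%, 11.9% and 15.8%. At the left edge the same genes supplied 0.794%, 3.35%, 3.77% and 3.84%. The right interior was the highest zone and the left edge the lowest in each of the 4 wells, and in wells B, C and D the left interior lay above the right edge. In well A the left interior, at 1.86%, was below the right edge, at 3.65%. The left interior value of well A rests on 6 spots and 882 UMIs of these genes (exact binomial 95% interval 1.74% to 1.98%, which covers counting error only). Fewer cells of a type in a spot and less RNA per cell cannot be told apart in such counts.

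**Figure D1:**
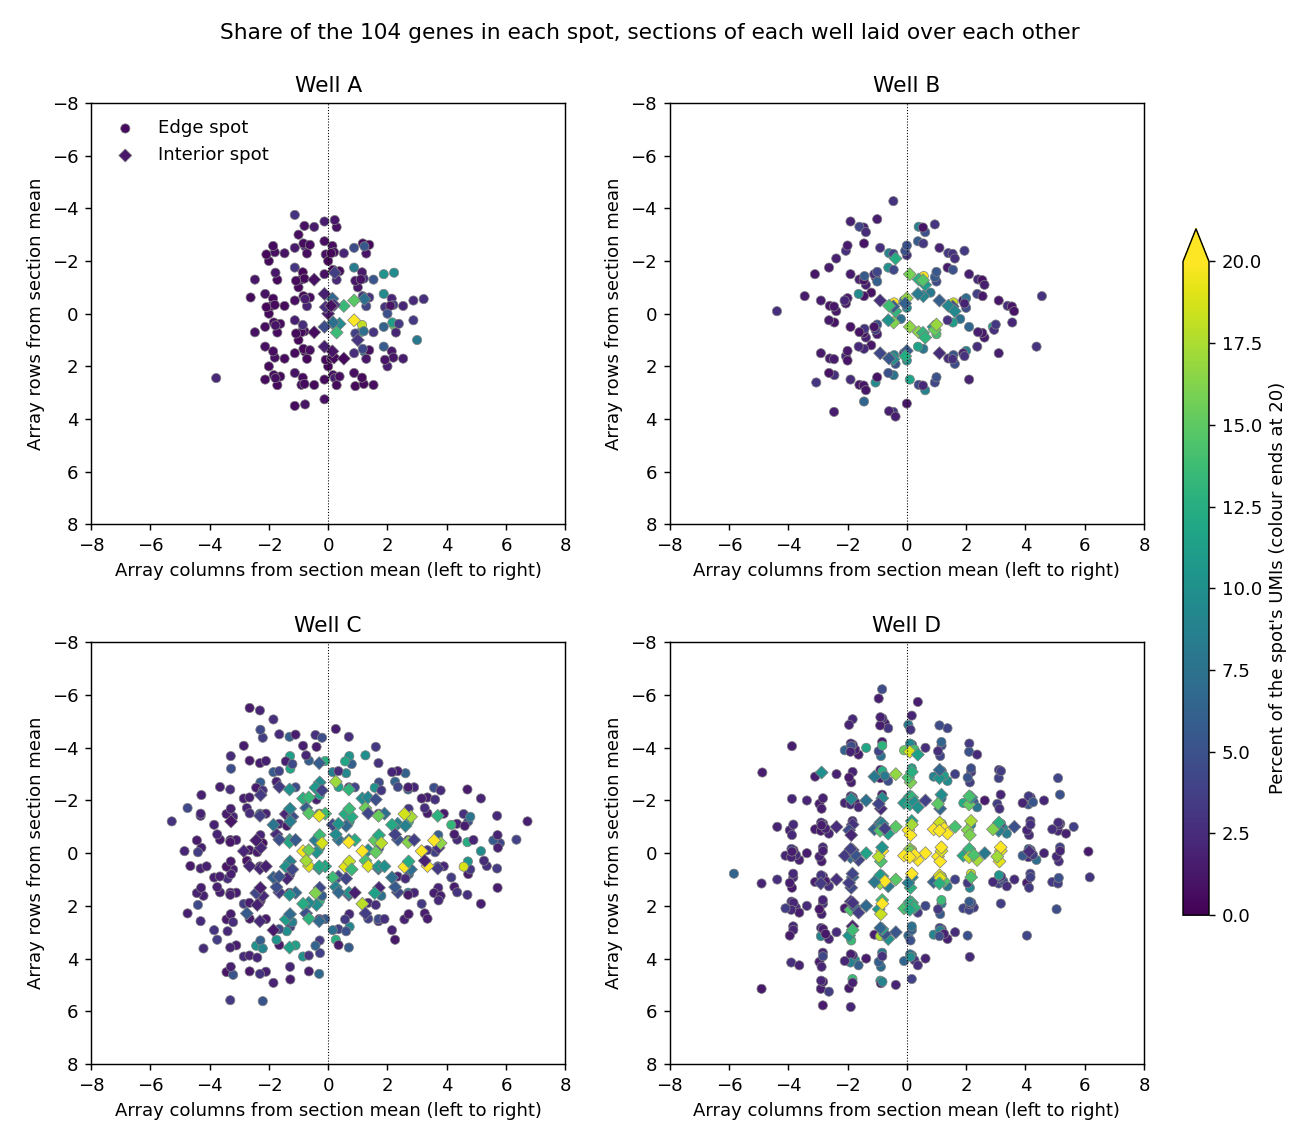
Share of the 104 genes in the UMIs of each section spot (colour), placed by array columns and rows from the mean of its section, for the 12 sections of each well. Circles are edge spots and diamonds interior spots. Of the 20 spots with the highest shares in each well, 20, 13, 15 and 16 lie on the right in wells A, B, C and D, and 0, 6, 5 and 4 on the left.

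**Figure D2:**
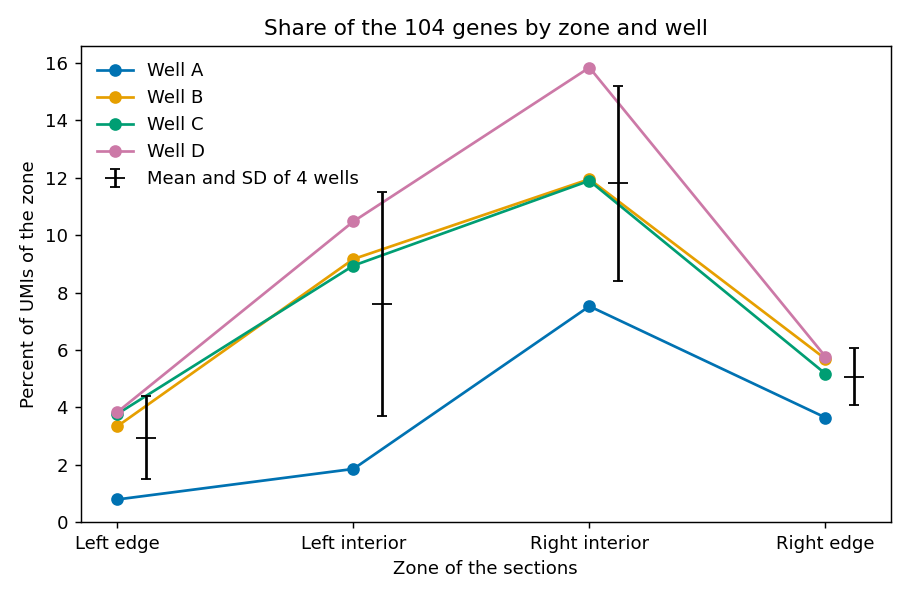
Percent of the UMIs of each zone that came from the 104 genes, by well (coloured points), with the mean and SD of the 4 wells in black. The right interior is highest in each well, from 7.53% in well A to 15.8% in well D.

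Single genes ranged widely in level, from a mean of 51.2 CPM to 10021 CPM with a median of 169 CPM, and were found in 26.1% to 98.8% of the spots. DJKW.22858 was the most abundant, at 6232, 10652, 10678 and 12521 CPM in wells A, B, C and D. DJKW.22212 followed with 1637, 4878, 5304 and 6193 CPM. The level was lowest in well A for 100 of the 104 genes, against 27.5% of the 2684 qualifying features. It was highest in well D for 72 of them, and the share of all qualifying features highest there was not counted. Interior spots were 23 of 180 in well A, 32 of 201 in well B, 139 of 402 in well C and 140 of 433 in well D. The genes were chosen as higher in the interior, and the part of this mix in their well levels was not tested.

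Interior over edge log2 ratios, on the scale of CPM + 5, had a median of 1.42 and ran from 1.01 to 2.45, while the median of all qualifying features was -0.29. The highest ratio was that of DJKW.24046, which stood at 149, 143, 908 and 2307 CPM in the interior of wells A, B, C and D and at 10.2, 34.1, 235 and 368 CPM at their edge. The interior was higher in each well, with log2 ratios of 3.34, 1.92, 1.93 and 2.63, although the levels of the zones overlapped between wells. DJKW.23725 was next, with interior over edge log2 ratios of 2.83, 2.05, 1.96 and 2.52. Interior spots held more UMIs than edge spots, with medians of 11626.5 and 7926, and the part of depth in these ratios was not tested.

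Right over left log2 ratios had a median of 1.15 and ran from 0.73 to 1.80, against a median of -0.23 over all qualifying features. DJKW.5658 had the highest ratio. On the right it stood at 995, 1601, 1527 and 1435 CPM in wells A, B, C and D, and on the left at 80.9, 561, 704 and 691 CPM, so the lowest right value lay above the highest left value. DJKW.26417 came next, with 109, 198, 871 and 1642 CPM on the right and 16.7, 51.4, 384 and 680 CPM on the left. Its levels overlapped between the sides because those of the wells differed, while its log2 ratio was 2.39, 1.85, 1.17 and 1.27 within them.

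The size of the lean differed between wells. The median log2 ratio of the 104 genes in wells A to D was 2.43, 0.95, 0.49 and 0.71. Well A had the largest ratio of the 4 wells for 102 of the genes and well C the smallest for 95. How many of all qualifying features had these orders was not counted. The medians of all qualifying features in wells A to D were -0.08, -0.34, -0.21 and -0.28. The genes were chosen by the mean of this ratio over the 4 wells, which a large ratio in 1 well raises. The summed share of the genes was 5.21 times higher on the right than on the left in well A, and 1.92, 1.49 and 1.75 times higher in wells B, C and D. Of the 104 genes, 101 leaned to the right in 4 wells and 3 were below 0 in a well. With TMM scaling (factors that correct for a few abundant genes), which moved the median of all qualifying features up by 0.27, 1 gene was below 0 in a well.

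The mean lean therefore rests in part on the library with the fewest UMIs. Over wells B, C and D alone, 50 of the 104 genes kept a mean log2 ratio of at least 0.7, and the range over all 104 was 0.21 to 1.43. Applying the whole rule to those wells alone gave 93 genes, of which 48 were among the 104. Without well B it gave 82 genes, 79 of them shared, without well C 111 genes, 102 shared, and without well D 101 genes, 97 shared.

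**Figure D3:**
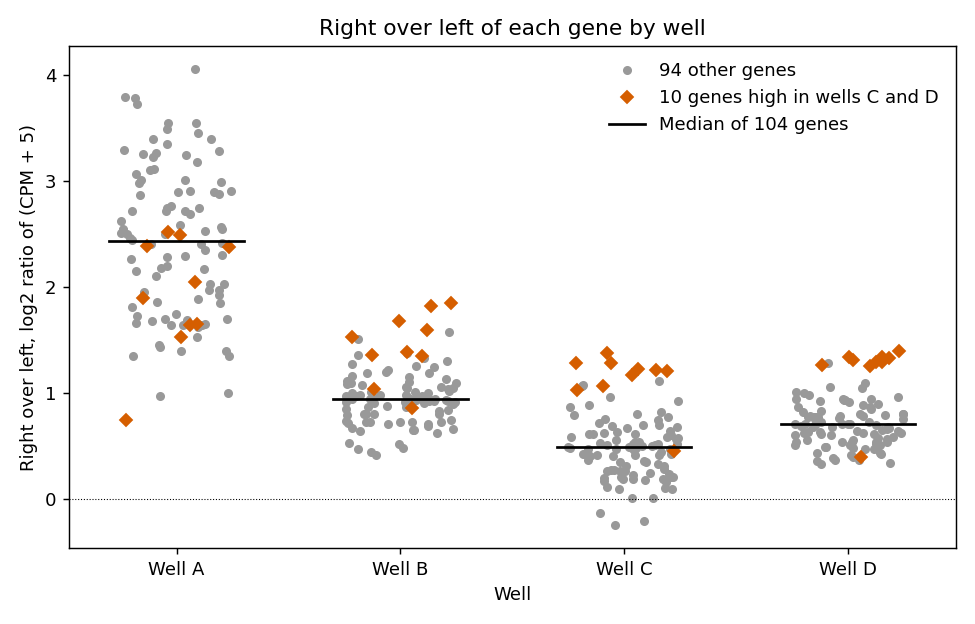
Right over left log2 ratio of (CPM + 5) for each of the 104 genes in each well, with the median as a line. Well A has a median of 2.43 and the other wells 0.49 to 0.95. The 10 genes with levels at least 4-fold higher in wells C and D (diamonds) are described further on.

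The right side held more interior spots than the left in wells A, B and D, at 16 against 6, 18 against 12 and 73 against 67, and 69 against 70 in well C. The lean was therefore also taken within each zone. Among interior spots the right over left log2 ratio, averaged over wells, was above 0 for all 104 genes, with a median of 0.83 and a range of 0.15 to 1.81. Among edge spots it was above 0 for all 104 as well, with a median of 1.04 and a range of 0.48 to 1.60. The ratio was above 0 in 4 of 4 wells for 70 genes among interior spots and for 100 among edge spots. Over all qualifying features the medians were -0.20 in the interior and -0.15 at the edge. The summed share was 4.05, 1.30, 1.33 and 1.51 times higher on the right among interior spots of wells A, B, C and D. At the edge it was 4.59, 1.70, 1.37 and 1.503 times higher. These ratios belong to the contrast that chose the genes and describe its shape only.

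Across the width, with each section divided into 5 equal parts from left to right, the leftmost edge spots had the lowest edge share in each well, 0.645% in well A and 1.89% to 2.08% in the others. At the edge of wells C and D the share was highest in the middle part, at 6.78% and 7.24%, and lower again at the far right, at 4.47% and 3.46%. Well B reached 6.44% in part 4 and 4.90% in the last. Well A stood at 0.841% in part 3, 4.05% in part 4 and 4.30% in the last. In the interior, parts 2, 3 and 4 stood at 9.46%, 16.0% and 15.8% in well D and at 7.46%, 11.2% and 11.8% in well C. Part 5 of the interior held 6 spots in well C, at 19.8%, which was the highest share of all parts, and 4 spots in well D, at 8.52%. The leftmost part was thus low at the edge of each well, while the place of the highest share differed between wells and zones.

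**Figure D4:**
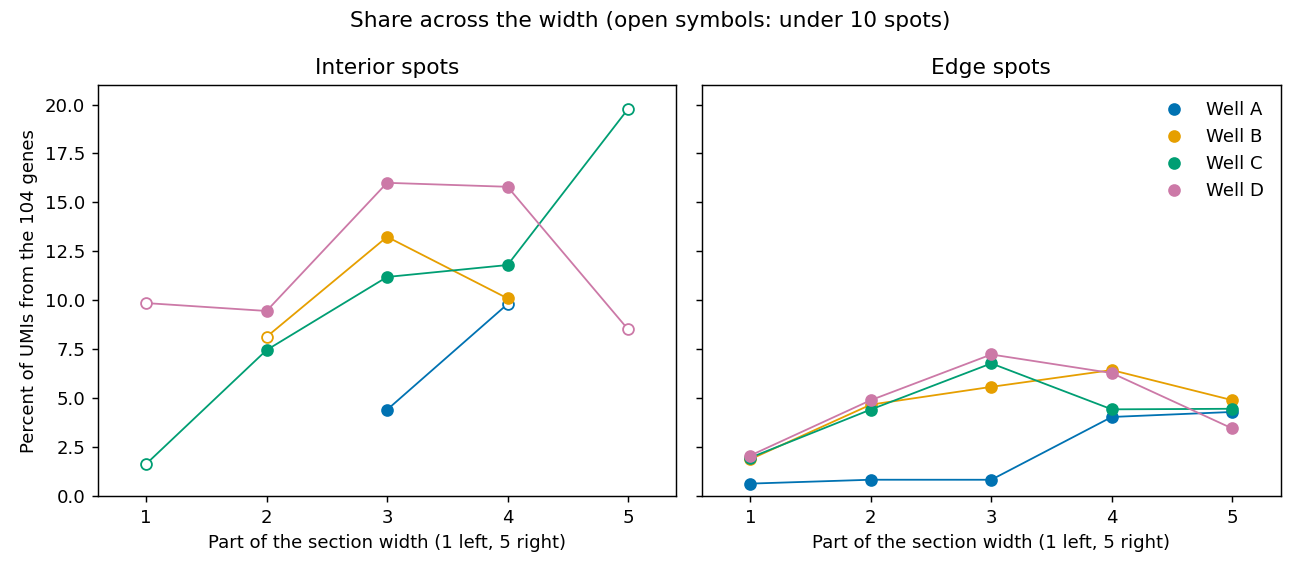
Percent of UMIs from the 104 genes in 5 parts of the section width, for interior spots (left panel) and edge spots (right panel) of each well. Open symbols stand for under 10 spots. Edge shares are lowest in the leftmost part in each well, and well A rises from 0.841% to 4.05% between parts 3 and 4.

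The lean was present in nearly every section. The genes were chosen by right over left and interior over edge in the summed counts of these sections. The section counts therefore describe the choice and give no separate support for it. Sections of a well come from the same library and are not replicates. The summed share was higher on the right in 46 of 48 sections, which were 12 of 12 in wells A and B and 11 of 12 in wells C and D. The section of well C that leaned the other way had 5.34% on the right and 5.59% on the left, and that of well D 6.38% and 7.62%. Of the 45 sections with interior spots, 43 had a higher share inside than at the edge. The exceptions were a section of well A with 1 interior spot, at 0.912% inside and 2.97% at the edge, and the section of well C just named, with 2.99% inside and 5.90% at the edge. Section shares ran from 1.23% to 4.66% in well A and 4.19% to 16.4% in well B. Those of wells C and D ran from 5.48% to 10.2% and 6.64% to 10.3%. The value of 16.4% comes from a group of 7 spots with no interior.

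The thresholds cut through a continuous range. Just inside the limit on right over left stood DJKW.4091, at a mean log2 ratio of 0.73, and DJKW.22345, at 0.76. Just outside stood DJKW.22283, at 0.68, and DJKW.16301, at 0.66. In all, 10 genes met the interior condition without the right lean, with ratios of 0.43 to 0.68. On the interior side the lowest ratios inside were 1.01 for both DJKW.7988 and DJKW.4091. Just outside, DJKW.7243 stood at 0.996 and DJKW.20979 at 0.993 with right over left ratios of 0.81 and 1.57.

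The genes were split into 2 kinds by a cut on their levels in the wells. The cut was set after the values were seen and is used here only to describe. In 10 genes the lower of wells C and D was at least 4-fold above the higher of wells A and B, which held for 16 of the qualifying features (0.596%). The ratio ran from 4.69 to 10.9 in these 10 genes, while the nearest of the other 94 were DJKW.8881 at 3.67 and DJKW.10502 at 3.49. DJKW.24046 stood at 30.7, 58.4, 516 and 1222 CPM in wells A, B, C and D, and DJKW.18023 at 12.7, 33.8, 245 and 538 CPM. These were the genes with the largest ratio between the highest and the lowest well. The level rose in the order A, B, C, D in 9 of the 10 genes, the exception being DJKW.4941 with 10.0, 21.5, 276 and 234 CPM, and in 47 of the other 94. Over all qualifying features 6.26% had that order. In the 10 genes the 4-fold condition already places wells A and B below wells C and D. Their count of 9 therefore cannot be set against the 6.26%. DJKW.18023, DJKW.4941 and DJKW.24046 also reached the mean CPM needed to qualify only through wells C and D. Other genes among the 10 were likewise below that level in both wells A and B. Section size also differed between these pairs of wells, with medians of 14 and 17.5 spots against 34.5 and 35, and its part in the levels was not tested.

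Both kinds leaned to the right, with different medians in the wells. In the 10 genes the median right over left log2 ratio was 1.97, 1.46, 1.21 and 1.30 in wells A, B, C and D. In the other 94 it was 2.49, 0.94, 0.47 and 0.69. The median level in well A was 34.0 CPM in the 10 genes and 63.7 CPM in the other 94. Adding 5 CPM lowers ratios most at low levels. Without that addition, the summed share was 5.75, 2.91, 2.29 and 2.45 times higher on the right in the 10 genes. In the other 94 it was 5.20, 1.90, 1.43 and 1.64 times higher. By zone, the fold in well A was 1.43 in the interior and 8.70 at the edge for the 10 genes. For the other 94 it was 4.27 and 4.56 there. The 10 genes together had only 44 UMIs at the left edge of well A and 68 in its left interior. The median interior over edge log2 ratio was 2.14 in the 10 genes and 1.38 in the other 94. These values describe genes chosen by the same wells and zones, and the difference between the kinds was not tested.

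Within the interior the genes also varied together from spot to spot. Spearman correlations were taken over the 334 interior spots on ranks of each gene's share within its well, so that differences between wells do not enter. A gene's correlation with the summed other members had a median of 0.61 and ran from -0.03 to 0.94. DJKW.22854 and DJKW.22212 were highest, at 0.94 and 0.92, and both are among the more abundant genes, where counting noise is lower. DJKW.4941 and DJKW.7988 were lowest, at -0.03 and 0.25. The pairwise correlation had a median of 0.39 over all members, 0.41 among the 94 genes, 0.77 among the 10 genes and 0.30 between the kinds. Among the 10, DJKW.4941 stood apart, with correlations of 0.06 to 0.14 to the other 9, which correlated at 0.69 to 0.88 with each other. The points share the libraries and the right lean that chose the genes. A gene's share also correlated with the depth of the spot, with a median of 0.27.

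The rule did not name the position along the length of a section, which runs along the array rows, and this position was tested. Among interior spots, those nearer the middle of the length (central) were compared with those farther from it (outer), split at the median of each well. Counts were summed per well and part and fitted with edgeR with the well as a block, across 4908 features. Of the 104 genes, 6 were higher in the central interior and 0 in the outer interior at an adjusted p under 0.05, where 0.163% of all features were called central and 0.346% outer. In all, 8 features were called central, so 6 of these 8 were among the 104 genes. At an unadjusted p under 0.05, 37 of the 104 genes were higher in the centre and 0 in the outer part, against 132 and 143 of all features. DESeq2 called 2 of the 104 genes higher in the centre and 0 in the outer part. The median log2 fold change was 0.25 over the 104 genes and 0.01 over all features.

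This comparison is not independent of the choice of the genes, which were low at the edge. Outer interior spots lay nearer the edge in wells B, C and D, with a mean of 4.25, 2.81 and 3.21 edge spots among their 6 neighbours, against 3.75, 1.87 and 2.10 for central spots. In well A the means were 5.22 and 5.21. The higher central values of the 104 genes are therefore a description of their place and no separate support for it, and the part of nearness to the edge was not tested.

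All 6 genes called central were among the 10 genes that were high in wells C and D. DJKW.23720 stood at 476, 583, 4324 and 11846 CPM (TMM-scaled) in the central interior of wells A, B, C and D and at 54.0, 267, 953 and 3254 CPM in the outer interior. It was higher in the centre within each of the 4 wells, with a log2 fold change of 1.92 ± 0.22 (SE, edgeR adjusted p = 0.00453). DJKW.7912 stood at 165, 347, 1276 and 3809 CPM in the centre and 8.995, 134, 398 and 949 CPM in the outer part, again higher in each well, with a log2 fold change of 1.83 ± 0.20 (SE, edgeR adjusted p = 0.00453). The outer interior of well A holds only 9 spots and 93870 UMIs in all. Its values for both genes therefore rest on very few UMIs. Of the 10 genes, 9 had a log2 fold change above 0, with a median of 1.49, and DJKW.4941 stood at -0.39 ± 0.56 (SE, edgeR adjusted p = 0.99). The other 94 had a median of 0.24, with 87 above 0 and none called, their lowest edgeR adjusted p being 0.0817. Over all features tested, 51.8% were above 0.

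Sides were not equally present in these parts. In well C 57.3% of central and 40.6% of outer interior spots lay on the right, and in well D 57.5% and 46.3%. With each side of each well as a block of its own, an alternative added after the data were seen, 10 of the 104 genes and 13 of all features were called central, all of the first 6 genes among them. Both sides of a well come from 1 library and the same sections, so these blocks are not separate replicates and the p-values of this fit are too small. On the right side alone, with fewer spots and 2872 features tested, DJKW.23720 and DJKW.7912 kept log2 fold changes of 1.97 and 1.88 and missed the threshold (edgeR adjusted p = 0.0889 for both). Without well C they also missed it, at log2 fold changes of 1.81 and 1.92 (edgeR adjusted p = 0.0842 and 0.0686), and 0 of the 104 genes were called central while 1 was called outer. Without well A, 10 of the 104 genes and 16 of 5872 features were called central, without well B 10 and 12 of 5992, and without well D 7 and 7 of 3085.

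At the rim, edge spots in the outer 25% of the length at each end were compared with the other edge spots, across 7549 features. Of the 104 genes, 0 were higher at the ends and 3 were higher in the middle (edgeR adjusted p under 0.05), against 1.03% and 0.768% of all features. At an unadjusted p under 0.05 the counts were 0 and 11 of the 104 genes, against 388 and 395 of all features. DESeq2 called 0 and 1 of the genes and 53 and 35 of all features. Spots at the ends had fewer tissue neighbours than those in the middle, with means of 3.12, 3.04, 3.47 and 3.47 against 3.84, 3.82, 3.86 and 3.92 in wells A, B, C and D, and the part of this in the calls was not tested. The 3 called genes were DJKW.4941, DJKW.18023 and DJKW.24046, again of the 10 genes high in wells C and D. All 3 reached the mean CPM needed to qualify only through those wells. DJKW.4941 stood at 6.56, 10.1, 51.6 and 46.6 CPM at the ends of wells A, B, C and D and at 9.59, 20.8, 211 and 113 CPM in the middle. It was lower at the ends in 4 of 4 wells, by a log2 fold change of -1.59 ± 0.20 (SE, edgeR adjusted p = 0.00577). DJKW.18023 stood at 2.63, 16.4, 74.5 and 126 CPM at the ends and 14.4, 26.3, 159 and 225 CPM in the middle, with a log2 fold change of -0.98 ± 0.15 (SE, edgeR adjusted p = 0.0167). In well A the rim ends held 686437 UMIs and the rim middle 589122, so its values for both genes rest on few UMIs. The step of DJKW.4941 there, from 9.59 to 6.56 CPM, is a difference of very few UMIs.

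Each of the 10 genes had a log2 fold change below 0 at the ends of the rim, from -1.59 to -0.77. The other 94 had a median of 0.02 with 51 above 0, and over all features tested 47.6% were above 0. Well A differed from the other wells here. Its summed share was 1.06% at the ends and 3.27% in the middle, whereas wells B, C and D had 4.33%, 4.76% and 5.19% at the ends and 4.28%, 3.94% and 4.14% in the middle. Without well A, 21 of the 104 genes were called higher at the ends, none of them among the 10, and 10 were called higher in the middle, which were those 10 genes. In the same fit 191 and 128 of 7781 features were called, against 78 and 58 with well A. The share of right-side spots was lower at the ends than in the middle in each well, such as 43.2% against 49.3% in well A and 34.7% against 52.3% in well C. With each side of each well as a block the median log2 fold change of the 104 genes was 0.17, against -0.00 without. In that fit 57 of 5143 features were called at the ends and 39 in the middle. Of the 104 genes, 1 was called, DJKW.4941 (log2 fold change -1.49, edgeR adjusted p = 0.00338), while DJKW.18023 was at -0.74 (edgeR adjusted p = 0.485). Without well C neither was called (edgeR adjusted p = 0.154 and 0.312).

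**Figure D5:**
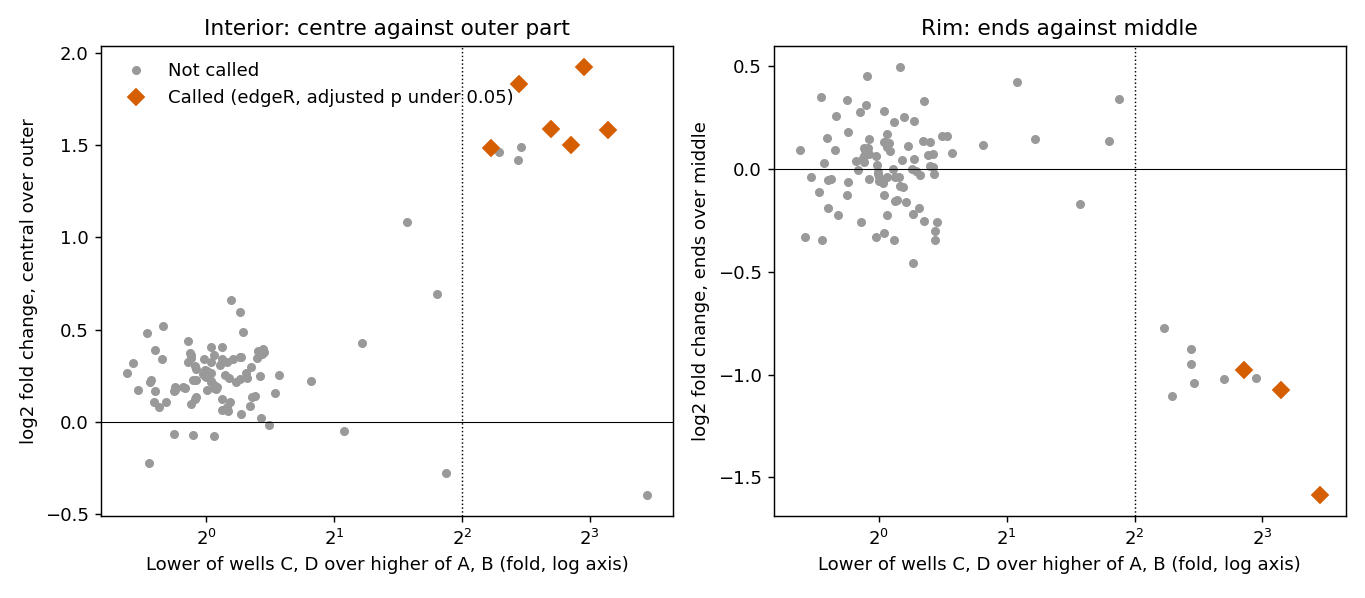
The log2 fold change of each of the 104 genes between the central and outer interior (left panel) and between the ends and the middle of the rim (right panel), against the ratio of the lower of wells C and D to the higher of wells A and B (log axis, dotted line at 4). The 6 and 3 genes called by edgeR (diamonds) all lie right of the line.

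The last comparison was between the sides of higher and lower array rows, the other direction of the length. None of the 104 genes and none of the 8394 features tested was called in either direction by edgeR, and DESeq2 also called 0. At an unadjusted p under 0.05, 0 of the 104 genes were higher in the higher rows and 1 in the lower rows, against 165 and 207 of all features. The log2 fold changes of the 104 genes ran from -0.49 to 0.21, with a median of 0.00. Of the 104, 53 were above 0, against 50.1% of all features. Well A had a summed share of 3.17% in the higher and 2.09% in the lower rows. The other wells had 5.66% and 6.10%, 6.71% and 7.15%, and 8.67% and 8.57%.

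Some of the identifiers lie close together in number. Counting for each member the qualifying features within 10 numbers of it, 18 of 212 were members as well (8.49%), against 3.87% of all qualifying features. In all, 15 of the 104 genes had another member that near, such as DJKW.22854 and DJKW.22858, which are among the most abundant, and DJKW.23720 and DJKW.23725, which are of the 10 genes. How the numbers relate to places in the genome is not given in the sources used here, and reads that could fit similar neighbouring gene models may have been split between them.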

How the data were processed

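The deposited matrices hold raw UMI counts of each feature in each spot and come from Space Ranger 2.0.1, per the file headers. Seurat is also named in the submitters' processing notes. The genome build is not given in the sources used here, nor is the annotation. The positions deposited by the authors gave the other values used, the tissue flag and array row and column of each spot, and the matrices hold the spots marked as tissue.

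From these, counts were summed per well and zone. CPM are per 1e6 UMIs of the sum, with 5 CPM added before ratios. Tests used the quasi-likelihood test of edgeR 4.0.16 (R 4.3.3) after filterByExpr and TMM scaling, with the well as a block because both parts lie on the same sections, with Benjamini-Hochberg adjustment over all features tested and a threshold of 0.05. Standard errors were obtained as the log2 fold change divided by the root of the F statistic. DESeq2 1.42.0 was an alternative. The fits were tested on simulated data with known changes in features with mean counts of at least 20. All simulated features had 1 common spread (dispersion), and apart from the known changes both parts of a well had the same mean. Differences between wells in the size of a change, such as those of well A, were not simulated. The recovery given next may therefore be too high for the real data. Of 1.5-fold changes, 37% were recovered in the interior test, 43% in the rim test and 67% in the row test. Of 2-fold changes, 82%, 85% and 93% were recovered. A feature that was not called can therefore still differ by such amounts. Alternatives changed the scaling, filter, block, spots and wells used, and the block of well and side was chosen after seeing the data. Wells carry the replicate numbers, and both parts of a comparison come from the same well.

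The members, lists and tests were chosen with earlier results of these data known. Named genes are the 2 at each extreme of level, ratio, correlation or difference between wells, the 2 nearest each threshold, and up to 2 called per direction. Spots can hold several cells, so doublets were not called.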

Additional observations from a re-analysis of the deposited data

Results flagged for a closer look

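Of 53 sets of 4 well values checked, 8 held a well far from the other 3. Chance would give about 2.65 only for independent and unselected sets. Several of the 8 are ratios that the rule used or genes picked as extremes, so these counts cannot be set against each other. Well A was that well in 7 of the 8 sets, which share genes and spots and are not independent. It had 535 CPM of DJKW.5658, against 1040 to 1083 in the others, and a right over left log2 ratio of 2.53 for DJKW.22854, against 0.67 to 0.94. The left edge share of the 104 genes was 0.794% in well A and 3.35% to 3.84% in the others. The fold of the summed share, right over left, was 5.21 against 1.49 to 1.92 over all spots, 4.59 against 1.37 to 1.70 at the edge and 4.05 against 1.30 to 1.51 in the interior. Its fold between higher and lower rows was 1.52, against 0.928 to 1.01. Well C had a right over left log2 ratio of 0.28 for DJKW.22345, against 0.87 to 0.97 elsewhere.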

How the results depend on the processing

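The rule gave 165 genes with TMM factors in place of totals, all 104 among them. A pseudocount of 1 CPM gave 109, section spots alone gave 103, and leaving out 1 well gave 82 to 111. For the interior test (8 features central, 17 outer, 6 members central), DESeq2 gave 2, 0 and 2. Library totals gave 5 central and 10 outer features, no filter on low counts 24, 63 and 13, and the right side alone 0, 0 and 0. Without the replicate block all 3 counts were 0, and with a replicate block of well and side 13 features and 10 members were central. Leaving out 1 well gave 0 to 16 features central, 3 to 41 outer, 0 to 10 members central and 0 to 1 outer. For the rim test (78 features at the ends, 58 in the middle, 3 members in the middle), DESeq2 gave 35 features and 1 member in the middle. No filter gave 215 and 201 features and 1 and 13 members. The right side alone gave 19, 3 and 1, and no replicate block 6, 1 and 0. The replicate block of well and side gave 57 features at the ends, 39 features in the middle and 1 member in the middle. Leaving out 1 well gave 13 to 191 features and 0 to 21 members at the ends, and 3 to 128 features and 0 to 10 members in the middle. For the rows, where nothing was called, interior spots alone gave 1 and 4 features, no filter 18 and 45 and 1 member in the lower rows, and leaving out 1 well 0 to 3 and 0 to 9 features and 0 to 1 member in the lower rows. The cause of these changes was not tested, but fewer spots and fewer features enter on the right side alone. DJKW.7912 and DJKW.23720 kept their direction and call in 8 of 11 alternatives each, DJKW.4941 in 9 and DJKW.18023 in 4, and none of the 4 reversed. Wells A and B hold few interior spots, which limits the interior test there.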
